A study of Saccharomyces cerevisiae with 6 samples.

Results

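The PAU, DAN and TIR genes of Saccharomyces cerevisiae, a budding yeast, encode mannoproteins, most of them of the cell wall, that the yeast makes when oxygen or heme is scarce. The 30 listed genes were 24 PAU (seripauperin) genes, 2 DAN (delayed anaerobic) genes and 4 TIR genes, out of 5983 protein-coding genes with a gene window. They were chosen by name, and each was read over the 500 bp upstream of its start codon, called the promoter here, and over its gene body, by the gene table of the R64 build.

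Anti-FLAG chromatin immunoprecipitation followed by sequencing (ChIP-seq) was compared between 3 rpd3Δ samples (strain YHy17) and 3 WT samples (strain OAy1102). Rpd3 is a histone deacetylase, and the series title asks how it acts on replication origins and on the forkhead protein Fkh1. Both groups grew in about 100 mL of YEPD at 23 °C, were stopped in G1 by α-factor (about 5 nM, about 4 h), and were fixed in 1% formaldehyde. The labels do not name the protein that carries the FLAG tag, and no input library was analysed here. Whether the samples of a group were separate cultures is not stated, so every p-value refers to the spread among 6 libraries that may differ only technically.

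In cells with oxygen the family is kept silent by the repressors Rox1 and Mot3 with the Tup1-Cyc8 corepressor. When heme and sterol fall, the zinc-cluster factor Upc2 switches the DAN and TIR genes on, and the Rpd3 complex has been described as acting directly in that induction. Most PAU genes lie near chromosome ends, where silencing and repeated sequence are common. The labels mention no anaerobic step, and ChIP signal is no measure of expression.

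The samples held 4888453 to 6785491 summed bin counts in rpd3Δ and 3987250 to 5907739 in WT. The ribosomal DNA array took 55.1% to 62.6% of them in rpd3Δ and 36.5% to 48.6% in WT, and its part in the values below was not tested. At RPD3 the body held 22, 28 and 23 counts in rpd3Δ, against 256, 299 and 200 in WT. BAR1, the gene of a secreted protease that breaks down α-factor, was empty in both strains, with 0 counts in each of the 6 samples. The median 50 bp bin outside the array held 7 to 12 counts, so a 500 bp window rests on few reads.

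All 19 members under 30 kb from a chromosome end were PAU genes. The other 11 were PAU2, PAU5, PAU7, PAU17, PAU23, DAN1, DAN4 and TIR1 to TIR4. PAU4, at 14896 bp, was the member inside that limit farthest from an end, and DAN4, at 30011 bp, the first outside it. All 19 were transcribed toward the nearer end, against 198 of 370 other genes (53.5%) in the same zone. The members stood behind long intergenic stretches, with a median gap of 1828 bp to the next gene upstream, against 422 bp for all coding genes.

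The PAU genes are close copies of each other. Of the 24, 13 are 363 bp long and 5 are 375 bp long. Some share related neighbours: PAU21 and PAU22, each 495 bp long, stand 1128 bp from ERR1 and 1129 bp from ERR2, and PAU12 and PAU24 stand 1952 bp from MAL12 and 1951 bp from MAL32. The treatment of reads that match several places is not given in the sources used here. All 30 gene bodies held counts in all 6 samples, with a lowest count of 8. Values of the PAU genes may mix reads of near-identical copies and are uncertain for any single gene.

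Most promoters of the family, TIR3 and TIR1 apart, carried little anti-FLAG signal in either genotype. How the treatment of reads that match several places bears on these levels was not tested. Signal was divided by the local background, the median of the 500 bp smoothed signal over the surrounding 20 kb of the same sample, cut at the chromosome end. The median member promoter stood at 0.770 times that background in rpd3Δ and 0.901 in WT (29 members), against 1.10 in rpd3Δ and 1.15 in WT over 5973 promoters. Averaged over the 6 samples, 23 of 29 members lay under the background, where 34.7% of all promoters did. PAU6 was set aside here, because its local background was under 0.25 of the median bin count in at least 1 sample.

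Levels were also set against genes with similar surroundings. Among genes with at least 1000 bp to the next gene upstream, 19 of 23 members lay under the background, against 216 of 669 other genes (32.3%). In the zone under 30 kb, 15 of 18 members lay under it, against 142 of 378 genes (37.6%) there. These are counts for a list chosen by name and carry no test.

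**Figure D1:**
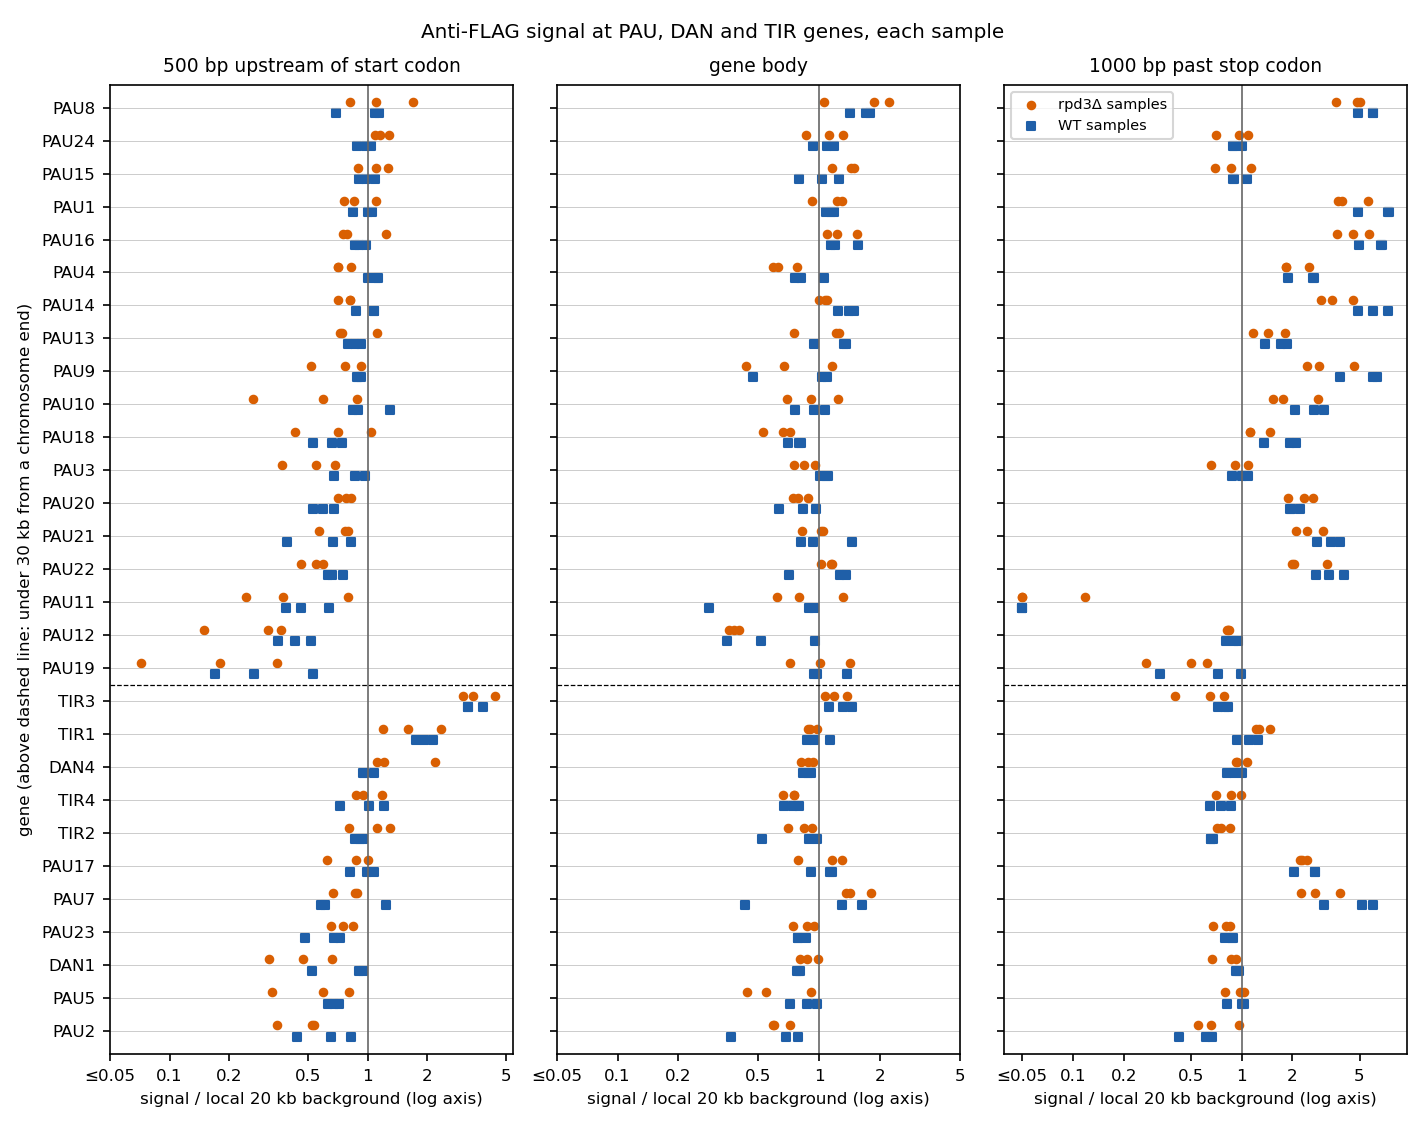
Anti-FLAG signal over local background (log axis) in each of 3 rpd3Δ samples (orange circles) and 3 WT samples (blue squares), for 29 genes, over the promoter, the gene body and the 1000 bp past the stop codon; values under 0.05 are drawn at the left edge. Among promoters only TIR3 stays above 3 in all 6 samples, while past the stop codon many PAU genes near chromosome ends lie above 2.

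TIR3 and TIR1 held the highest promoter levels of the family. TIR3, a cell wall mannoprotein that yeast needs to grow without oxygen, stood at 4.42, 3.40 and 3.02 times the local background in rpd3Δ, against 3.21, 3.83 and 3.21 in WT. The genotypes overlapped, and the mean over all samples, 3.51, was above 96.9% of promoters. Levels were 3.61 ± 0.723 in rpd3Δ and 3.41 ± 0.356 in WT (SD, n = 3 each). The promoter window (chromosome IX, 333227 to 333726) overlapped a binding region at 333251 to 333850, called on the sum of all samples as smoothed signal of at least 2 times the local median over at least 200 bp. The signal peaked 200 bp upstream of the start codon, at 5.34 times background in rpd3Δ and 5.26 in WT.

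TIR1, a cold-shock and anaerobic mannoprotein, came next with 2.36, 1.59 and 1.19 times background in rpd3Δ and 1.93, 2.15 and 1.75 in WT. The genotypes overlapped, because rpd3Δ sample 1 was the highest of all 6. The mean of 1.83 was above 86.1% of promoters, and the window (chromosome V, 174748 to 175247) touched a short binding region at 174701 to 174900. A taller peak stood 1500 bp upstream of the TIR1 start codon, inside the 1909 bp gap to the divergent gene YER010C. It reached 4.49, 2.71 and 2.38 in rpd3Δ and 4.49, 5.96 and 4.90 in WT. That position was chosen after its values were seen and was not tested.

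TIR2 and TIR4 are neighbours on chromosome XV that point at each other. TIR2 stood at 0.809, 1.29 and 1.12 times background in rpd3Δ, against 0.910, 0.863 and 0.949 in WT. TIR4, also needed for anaerobic growth, stood at 0.875, 1.19 and 0.942 in rpd3Δ and 1.22, 1.02 and 0.727 in WT. Both genes lay at background, and their genotypes overlapped. TIR1 and TIR3 were the 2 of 30 members whose promoter overlapped a binding region, where 15.6% of all promoters did.

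PAU promoters ranged widely at low level. PAU8, 1806 bp from the left end of chromosome I, had the highest promoter under 30 kb, with 1.10, 1.69 and 0.814 times background in rpd3Δ and 0.694, 1.14 and 1.09 in WT. PAU19, 1416 bp from the right end of chromosome XIII, had the lowest, with 0.0714, 0.180 and 0.348 in rpd3Δ and 0.268, 0.169 and 0.531 in WT. PAU19 held 2 to 8 counts in rpd3Δ and 11 to 17 in WT, too few to test. PAU2 was lowest among members over 30 kb, at 0.350, 0.526 and 0.535 in rpd3Δ and 0.655, 0.439 and 0.825 in WT.

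Beside PAU19, the lowest levels stood at PAU12 (0.356 averaged over all samples), PAU11 (0.484) and PAU2 (0.555), each with under 2% of promoters below it. PAU11 has 33.1% empty bins around it. The PAU promoters above background on that average were PAU8, PAU24 (1.07) and PAU15 (1.04).

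For members under 30 kb the stretch farther upstream was lower than the promoter as a whole, whose medians were 0.74 in rpd3Δ and 0.88 in WT. The part of the promoter from 500 to 250 bp was about as low as that stretch, at 0.635 in rpd3Δ and 0.652 in WT. From 1000 to 500 bp before the start codon all 18 members under 30 kb lay under the local background, with medians of 0.624 in rpd3Δ and 0.659 in WT. Other genes in the zone had medians of 1.06 in rpd3Δ and 1.09 in WT there, and 39.5% of 357 lay under background. Over 30 kb, 7 of 11 members lay under background: PAU2 (0.357 averaged over all samples), DAN1 (0.655), PAU23 (0.659), PAU7 (0.731), PAU5 (0.778), PAU17 (0.811) and TIR4 (0.922). The other 4 lay above it: TIR1 (1.81), TIR2 (1.51), DAN4 (1.48) and TIR3 (1.27).

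**Figure D2:**
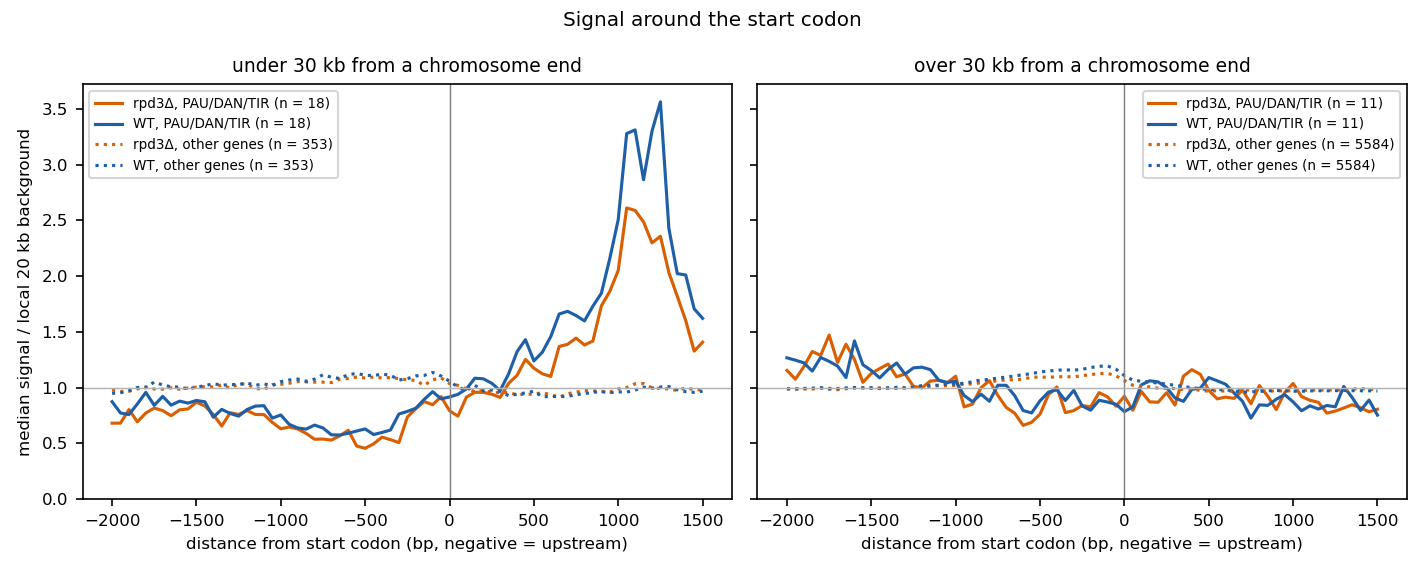
Median signal over local background by distance from the start codon, in rpd3Δ (orange) and WT (blue), for PAU, DAN and TIR genes (solid) and other genes (dotted), under 30 kb (left, 18 members) and over 30 kb (right, 11 members) from a chromosome end. Near the ends the members dip to 0.456 in rpd3Δ and 0.629 in WT 500 bp upstream and rise to 2.61 in rpd3Δ and 3.28 in WT 1050 bp past the start codon, while other genes stay near 1.

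The genotypes were then compared by edgeR's quasi-likelihood test on summed counts, with libraries scaled over 10 kb background bins (genome scaling) and Benjamini-Hochberg adjustment over all promoters. Of 29 members tested, 2 were lower in rpd3Δ, PAU10 and DAN1, and 0 were higher, while 1.22% of all promoters were lower and 0.335% higher. Under 30 kb it was 1 of 18 members, and 25 of 381 genes there were lower and 0 higher. Over 30 kb it was 1 of 11 members, and 48 of 5590 genes there were lower and 20 higher. With TMM over the promoter windows themselves, 53 promoters were lower and 61 higher, in place of 73 lower and 20 higher, and PAU10 was the 1 member called. DESeq2 without its independent filtering called 0 of 29. At an unadjusted p under 0.05 edgeR gave 5 members, all lower, against 9.24% of all promoters lower and 4.45% higher. Groups did not overlap at 7 members, all lower in rpd3Δ (PAU3, PAU4, PAU10, PAU12, PAU14, PAU15 and DAN1), against 11.6% of all promoters in that direction, and at 0 members in the higher direction, against 5.79%.

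PAU10, on the right arm of chromosome IV (promoter 1522749 to 1523248), held 40, 20 and 51 counts in rpd3Δ and 90, 116 and 110 in WT. All 3 rpd3Δ samples lay below all 3 WT samples. Scaled counts per bin, that is counts divided by the relative effective library size, were 4.25 ± 2.45 in rpd3Δ and 10.3 ± 3.21 in WT (SD, n = 3 each). The log2 fold change was -1.30 ± 0.24 (SE), with an adjusted p of 0.000593 by edgeR and 0.382 by DESeq2 without independent filtering. The local background around PAU10 was itself lower, at 7.35 ± 0.886 scaled counts per bin in rpd3Δ and 10.1 ± 0.614 in WT.

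Divided by that background, PAU10 stood at 0.597, 0.263 and 0.879 in rpd3Δ and 0.891, 0.841 and 1.29 in WT, and the genotypes overlapped. The log2 fold change over local background was -0.82 ± 0.24, with an edgeR adjusted p of 0.150. Sample 2 of rpd3Δ was the lowest. Without it, the change was -0.96 under genome scaling (edgeR adjusted p = 0.0597) and -0.44 over local background (adjusted p = 0.828).

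DAN1, a cell wall mannoprotein repressed in air (promoter on chromosome X, 709708 to 710207), held 41, 21 and 26 counts in rpd3Δ and 73, 111 and 34 in WT. The lowest WT count lay below the highest rpd3Δ count, but after scaling the genotypes did not overlap. Scaled counts per bin were 3.19 ± 0.893 in rpd3Δ and 6.41 ± 1.83 in WT (SD, n = 3 each). The log2 fold change was -1.03 ± 0.28, with an adjusted p of 0.0309 by edgeR and 0.0959 by DESeq2 without independent filtering.

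The DAN1 call was lost when some single libraries were left out, though the change kept its direction. The log2 fold change was -0.97 without WT sample 1 (edgeR adjusted p = 0.191), -0.86 without WT sample 2 (adjusted p = 0.301) and -0.81 without rpd3Δ sample 2 (adjusted p = 0.230). Fewer promoters of any gene were called lower in these fits: 13, 10 and 17 in that order, in place of 73 with all samples. Over local background DAN1 stood at 0.661, 0.318 and 0.473 in rpd3Δ and 0.901, 0.949 and 0.523 in WT. The genotypes overlapped, and the log2 fold change of -0.74 had an edgeR adjusted p of 0.396. In both genotypes the DAN1 promoter was below background in all samples.

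DAN4, the neighbour of DAN1 and also an anaerobic mannoprotein, went the other way over local background. Its promoter (chromosome X, 715741 to 716240) stood at 2.20, 1.12 and 1.22 in rpd3Δ and 1.07, 0.948 and 0.956 in WT. The genotypes did not overlap, but the log2 fold change of 0.61 ± 0.20 had an edgeR adjusted p of 0.275. It was 0.23 without rpd3Δ sample 1 (edgeR adjusted p = 0.705), and under genome scaling it was 0.23 with all samples kept (adjusted p = 0.668).

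Over local background, 0 of 28 member promoters passed the edgeR test, where 0.0503% of all promoters were lower and 0.0503% higher. At an unadjusted p under 0.05 there were 4 members lower and 1 higher, against 6.7% of all promoters lower and 1.69% higher, and DESeq2 without its independent filtering called 0. Groups did not overlap at 3 members lower in rpd3Δ (PAU4, PAU14 and PAU22), against 9% of all promoters, and at 3 members higher (PAU20, PAU24 and DAN4), against 2.92%. The median log2 fold change of the members was -0.05, and that of all promoters -0.08.

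Genome scaling gave a lower median for the members, -0.24, against -0.06 for all promoters. Members under 30 kb had a median of -0.24 and all genes there -0.25. Members over 30 kb had -0.23 and all genes there -0.05. The local background itself was lower in rpd3Δ at 24 of 29 members, against 43.9% of 5973 genes, with a median log2 difference of -0.14 for the members and 0.02 for all genes. Under 30 kb it was lower at 13 of 18 members (median -0.13) and at 322 of 378 genes (median -0.13). Over 30 kb it was lower at 11 of 11 members (median -0.18) and at 41.2% of 5595 genes (median 0.03). These 11 backgrounds are not all separate: the 20 kb windows of DAN1 and DAN4 overlap, and so do those of TIR2 and TIR4. The 11 differences ran from -0.35 at DAN4 to -0.002 at PAU23. What lowered the local background was not tested, and no input library was analysed here, so the difference need not be one of bound protein. Where binding does differ, ChIP of bulk cells cannot tell fewer cells with the protein bound from less protein bound per cell.

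**Figure D3:**
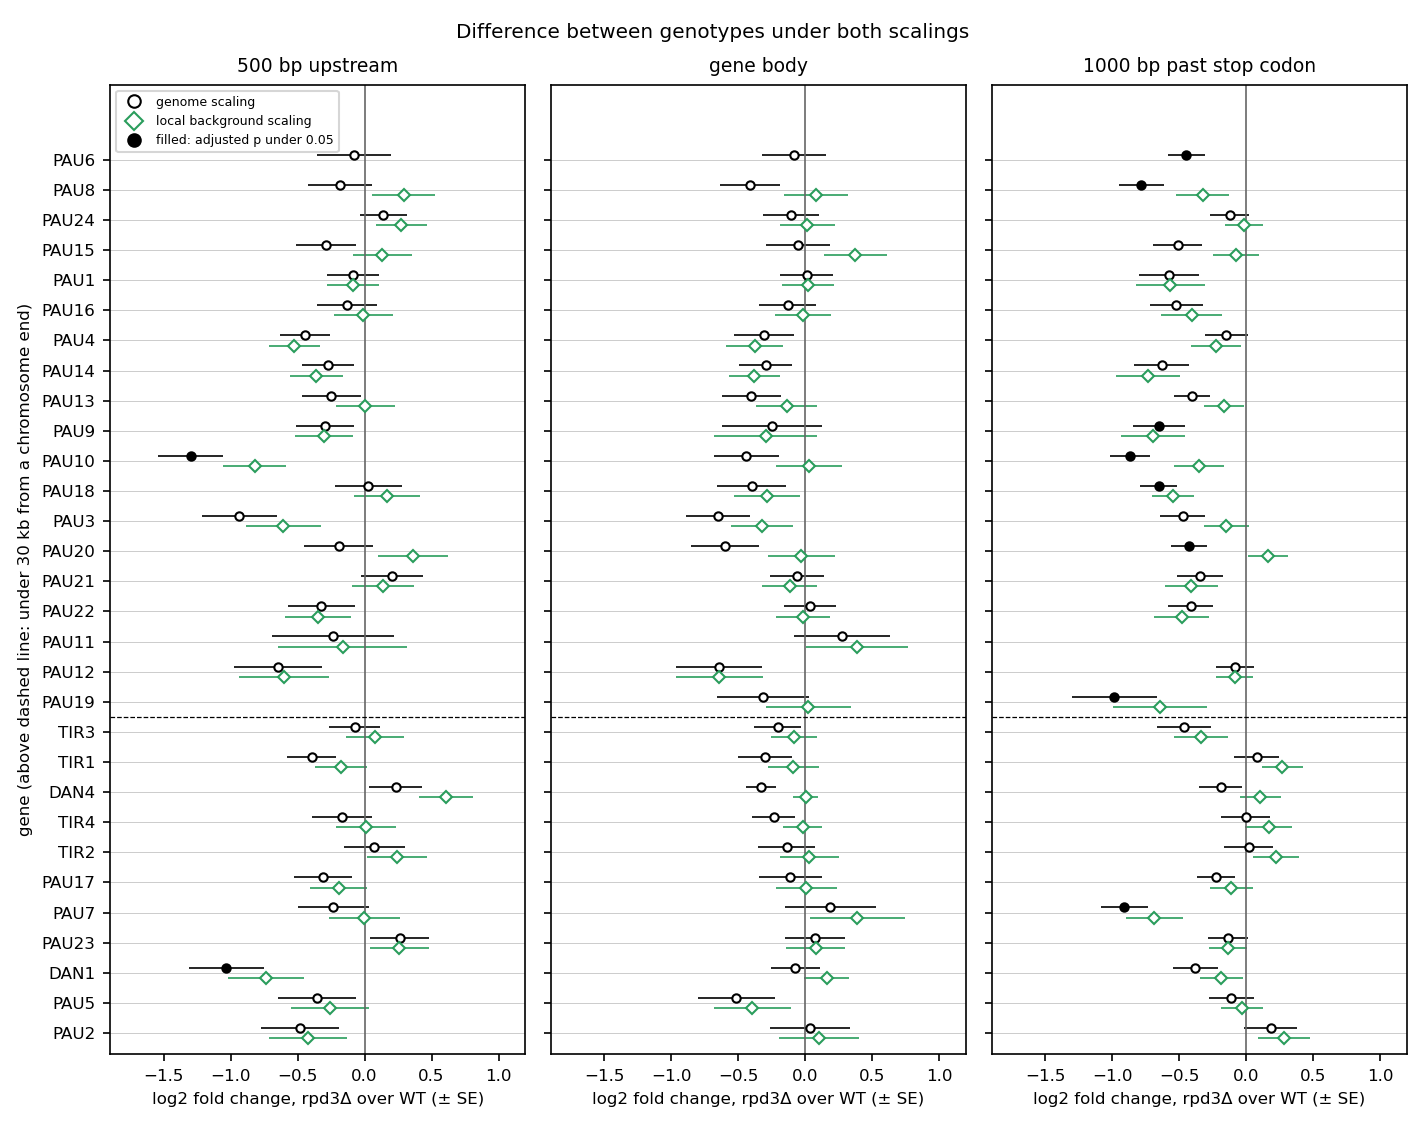
Log2 fold change, rpd3Δ over WT, with standard error, for each member by window, under genome scaling (black circles) and over local background (green diamonds); filled symbols passed an edgeR adjusted p of 0.05. Filled circles stand at PAU10 and DAN1 among promoters and at 8 PAU genes past the stop codon, all lower in rpd3Δ, and no diamond is filled.

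Over gene bodies the family lay close to its background. Median levels were 0.920 times background in rpd3Δ and 0.982 in WT for 29 members, against 0.994 in rpd3Δ and 0.990 in WT for all genes. Averaged over all samples, 16 of 29 member bodies lay under the background, where 50.8% of all bodies did. The bodies of PAU8 and TIR3 overlapped a binding region, 2 of 30, where 16.2% of all bodies did. PAU8 stood at 1.87, 2.21 and 1.05 in rpd3Δ and 1.70, 1.43 and 1.79 in WT, with overlapping genotypes. Its region, chromosome I 1 to 2000, runs from the chromosome end into the 3′ part of the gene (1807 to 2169) and stops short of the start codon.

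No member body passed the edgeR test. Under genome scaling it was 0 of 30 (3 at an unadjusted p under 0.05, all lower, against 8.55% of all bodies lower and 12.2% higher), where 3.03% of all bodies were lower in rpd3Δ and 4.05% higher. DESeq2 without independent filtering also called 0. Over local background it was 0 of 29 (0 unadjusted, against 6.68% of all bodies lower and 6.12% higher, and 0 by DESeq2), where 1.14% were lower and 0.721% higher. Under genome scaling the groups did not overlap at 5 members lower in rpd3Δ (PAU3, PAU14, PAU18, PAU20 and DAN4), against 10.1% of all bodies, and at 0 higher, against 13.7%. Over local background they did not overlap at 2 members lower (PAU3 and PAU14), against 8.89%, and 1 higher (DAN1), against 8.91%. DAN4 came nearest to the threshold, with 4.59, 6.40 and 6.07 scaled counts per bin in rpd3Δ and 7.05, 6.67 and 7.69 in WT. All rpd3Δ samples lay below all WT samples, and the log2 fold change was -0.33 ± 0.11 (edgeR adjusted p = 0.0644). Over local background DAN4 stood at 0.875 ± 0.0629 in rpd3Δ and 0.876 ± 0.0418 in WT (SD, n = 3 each), with a fold change near 1 (0.00 ± 0.09 on the log2 scale).

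The strong signal near these genes lay past their 3′ ends. A window of 1000 bp past the stop codon was added after the profiles had been seen. For the 19 members near chromosome ends, which all point outward, this window lies between the gene and the end. In it 15 of 30 members overlapped a binding region (PAU7, PAU17 and 13 PAU genes under 30 kb), where 15.1% of all genes and 17.8% of genes under 30 kb did. Medians of the members under 30 kb were 2.05 times background in rpd3Δ and 2.22 in WT, against 1.08 in rpd3Δ and 1.06 in WT for all genes there. No DAN or TIR gene overlapped a region past its stop codon.

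The window was then compared at matched distance and direction. Under 15 kb from an end, 10 of 18 members (55.6%) reached 2 times background past the stop codon. Among other genes under 15 kb that point outward it was 11 of 69 (15.9%), and among those that point inward 8 of 74 (10.8%). The highest level was at PAU1, which stood at 5.61, 3.96 and 3.73 in rpd3Δ and 7.34, 7.44 and 4.90 in WT. PAU14 stood at 4.58, 3.44 and 2.96 in rpd3Δ and 7.36, 6.0 and 4.87 in WT. The genotypes overlapped at PAU1 and did not overlap at PAU14.

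The signal was not shared by all: 14 of 29 members lay under the background past the stop codon on the average of all samples, where 38.6% of all genes did. PAU3, PAU12, PAU15 and PAU24 lay near 1 past the stop codon, between 0.829 and 0.922 in rpd3Δ and between 0.886 and 0.988 in WT. PAU11 held 2, 3 and 6 counts there in rpd3Δ and 1, 2 and 1 in WT, and 35.4% of the bins around it were empty in every sample. The copies PAU21 and PAU22 gave near-equal levels, 2.53 ± 0.470 and 2.42 ± 0.688 in rpd3Δ and 3.36 ± 0.519 and 3.37 ± 0.650 in WT (SD, n = 3 each). Whether reads of these copies were placed at the right one was not tested.

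Under genome scaling 8 of 29 members were lower in rpd3Δ past the stop codon by edgeR (PAU6, PAU7, PAU8, PAU9, PAU10, PAU18, PAU19 and PAU20) and 0 were higher, where 3.05% of all genes were lower and 3.83% higher. Calls were more common near chromosome ends: under 30 kb 7 of 18 members were lower, and 62 of 366 genes there. Among other genes under 15 kb, 13 of 71 that point outward and 18 of 76 that point inward were lower. The member count was 3 to 14 when single libraries were left out: 4 without WT sample 1, 3 without WT sample 2 and 14 without rpd3Δ sample 1. It was 4 with WT samples 1 and 2 summed. The calls over all genes moved in the same direction, from 182 lower to 90, 78, 248 and 92 in that order. Groups did not overlap at 11 members, all lower, against 11.1% of all genes. The log2 fold change was below 0 at all 18 tested members under 30 kb; their median was -0.49 and that of all genes there -0.21. Other genes under 15 kb that point outward had a median of -0.18, and 46 of 71 were negative. Those that point inward had a median of -0.26, and 61 of 76 were negative.

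PAU7, on chromosome I at 53195 bp from the end, was the member over 30 kb that passed the test. Its window (175856 to 176855) held 22.4, 17.4 and 15.2 scaled counts per bin in rpd3Δ and 37.1, 41.4 and 24.7 in WT. All rpd3Δ samples lay below all WT samples, and the log2 fold change was -0.91 ± 0.17 (edgeR adjusted p = 0.000571). Over local background PAU7 stood at 3.85, 2.73 and 2.25 in rpd3Δ and 5.16, 5.98 and 3.06 in WT, and the genotypes overlapped, with a change of -0.69 ± 0.21 (adjusted p = 0.124).

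PAU8 held 25.4, 21.4 and 21.0 scaled counts per bin past its stop codon in rpd3Δ and 41.8, 40.2 and 34.7 in WT. The groups stood well apart. The log2 fold change of PAU8 was -0.78 ± 0.17 (adjusted p = 0.00212 by edgeR). The local background moved too, at 5.09 ± 0.681 in rpd3Δ and 6.93 ± 0.203 in WT, and over it the change was -0.32 (adjusted p = 0.535). PAU10 held 17.6, 13.8 and 12.1 in rpd3Δ and 26.5, 29.4 and 23.7 in WT. Its groups did not overlap either, with log2 changes of -0.87 under genome scaling (adjusted p = 0.000192) and -0.36 over local background (adjusted p = 0.452).

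Over local background 0 of 28 members passed the edgeR test past the stop codon, where 0.252% of all genes were lower and 0.319% higher. At an unadjusted p under 0.05 there were 7 members, all lower in rpd3Δ, against 6.01% of all genes lower and 5.88% higher. DESeq2 called PAU18 with its independent filtering and 0 members without. PAU18 stood at 1.48, 1.13 and 1.12 in rpd3Δ and 1.94, 2.10 and 1.37 in WT, with overlapping genotypes, and had the lowest edgeR adjusted p of the members, 0.0810, with a change of -0.55 on the log2 scale. Groups did not overlap at 1 member lower in rpd3Δ (PAU14), against 8.53% of all genes, and at 1 higher (TIR2), against 8.15%. The member median was -0.18, and that of all genes -0.01.

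Other genes of the pathway were read the same way from lists of 21 further hypoxic genes, 7 regulators of the family and 15 other cell wall mannoproteins. No promoter of the 3 lists passed the edgeR test under either scaling. Binding regions overlapped 2 of 21, 2 of 7 and 6 of 15 of these promoters. Among hypoxic genes the highest levels stood at FET4, a low-affinity iron transporter, with 3.76 ± 0.759 times background in rpd3Δ and 2.58 ± 0.408 in WT, and FRD1, a fumarate reductase, with 2.01 ± 0.0749 in rpd3Δ and 2.11 ± 0.0335 in WT (SD, n = 3 each).

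Among the regulators the sterol regulator ECM22, a relative of UPC2, stood at 4.43 ± 1.02 in rpd3Δ and 4.54 ± 0.801 in WT, and the corepressor TUP1 at 2.82 ± 0.856 in rpd3Δ and 2.91 ± 0.788 in WT. Among wall genes CWP2 stood at 5.33 ± 1.72 in rpd3Δ and 6.71 ± 1.60 in WT, and CCW14 at 3.02 ± 0.633 in rpd3Δ and 3.79 ± 0.861 in WT (SD, n = 3 each). Median promoter levels of the lists, averaged over all samples, were 1.15 (hypoxic), 1.30 (regulators) and 1.40 (wall).

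Bodies of 5 genes of these lists passed the edgeR test under genome scaling, 2 lower and 3 higher, beside the 3.03% and 4.05% of all bodies given above. ERG11, the sterol demethylase (log2 fold change -0.48), and SED1, an abundant wall protein (-0.59), were lower in rpd3Δ. HMG2, an HMG-CoA reductase (0.33), HAP1, the heme-responsive activator (0.46), and YGP1, a secreted glycoprotein (0.51), were higher. Over local background ERG11 (-0.43), SED1 (-0.50) and HAP1 (0.35) passed as well. Several of these calls were lost in some of the alternatives. Over 13 alternatives under genome scaling HMG2 passed in 5 and YGP1 in 8, with edgeR or DESeq2 adjusted p-values up to 0.322 and 0.130. Over local background ERG11 passed in 9 and HAP1 in 7 of 15 alternatives, with adjusted p-values up to 0.192 and 0.204, while SED1 passed in 13. SED1 stood at 2.24 ± 0.292 times background in rpd3Δ and 3.18 ± 0.168 in WT (SD, n = 3 each).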

How the data were processed

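Anti-FLAG ChIP-seq of 3 rpd3Δ and 3 WT samples was used. The authors deposited raw counts per bin of 50 bp, in 241434 bins over 16 chromosomes, without normalization. The submitters' processing notes name the R64 build and the tools Bowtie2, SAMtools and bedtools, without versions or read filters. Genes were placed by RefSeq's table for R64, with no sequence.

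The members and lists were chosen with earlier results of these data known. Bins whose centre lay in a window were summed, and a window was tested only with a mean of at least 10 counts. Libraries were scaled by TMM over 1194 bins of 10 kb outside the ribosomal DNA and the deleted genes, or the local background served as offset. In the local fits, windows whose local background was under 0.25 of the median bin count in any sample were left out. The quasi-likelihood test of edgeR 4.0.16 in R 4.3.3 compared rpd3Δ with WT without covariates. P-values were adjusted (Benjamini-Hochberg, threshold 0.05) over all windows of one kind, and a standard error is the size of the log2 change divided by the root of F. DESeq2 1.42.0 was the alternative, and the code was tested on simulated data. Its default filtering left most members without an adjusted p, so it was also run without that filtering, an alternative chosen after seeing the data. Counts are not independent reads, since a read crossing a bin border counts in each bin.

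Values in every sample are given for members past the threshold in any promoter or body fit, for DAN1, DAN4 and TIR1 to TIR4, and for the highest and lowest promoter in each distance class. From each other list come up to 4 genes that passed a test, or else the 2 highest promoters. The members named for the windows past the stop codon, and others, were chosen after their values were seen. WT samples 1 and 2 were closest, with a chi-square per degree of freedom of 1.30 over the background bins (p = 7.08e-12), and rpd3Δ samples 2 and 3 had 1.34, against 4.28 to 5.84 for the other pairs of one genotype. These chi-square values were scaled down to allow for single reads that span several bins. The raw value was 3.27 for WT samples 1 and 2 (scaling factor 2.51) and 3.48 for rpd3Δ samples 2 and 3 (factor 2.59). The result depends on that correction, so it does not show that these close pairs came from separate cultures or libraries. All were entered as separate samples, and a fit with WT samples 1 and 2 summed is among the alternatives.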

Additional observations from a re-analysis of the deposited data

How the results depend on the processing

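For promoters under genome scaling, 2 members passed the threshold; 1 (PAU10) passed with TMM over the windows, with 250 bp windows and with WT samples 1 and 2 summed, 0 with DESeq2 without independent filtering, and 0 to 3 when single samples were left out (0 without rpd3Δ sample 2). With default DESeq2, 7 members had an adjusted p and 0 passed. Over local background the 0 became 0 to 1 with single samples left out (PAU10 without rpd3Δ sample 3). For bodies under genome scaling the 0 became 1 (DAN4) with TMM over the windows and 0 to 1 with single samples left out. Over local background 0 bodies passed in all alternatives run. Past the stop codon, 8 became 4 with WT samples 1 and 2 summed and 3 to 14 with single samples left out (4 without WT sample 1, 3 without WT sample 2, 14 without rpd3Δ sample 1). Lower calls over all genes went from 182 to 92 with the sum, and to 90, 78 and 248 without those samples. Over local background there, 0 became 1 with a 10 kb or a 40 kb median or with DESeq2, 2 with a mean, and 0 to 6 with single samples left out (6 without rpd3Δ sample 1, 2 without WT sample 3). Over all genes in that fit, lower calls went from 15 to 108 without rpd3Δ sample 1 and to 33 without WT sample 3. Member promoters under the background numbered 19 to 27 over all alternatives, and the class medians did not move with a split at 20 kb (the same classes) or at 40 kb (DAN1 and DAN4 among the near members). No result changed sign while called.

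Deviations of same-numbered samples correlated at 0.33, -0.225 and 0.455, and those of differently numbered samples at values from -0.565 to 0.482. These few values cannot decide whether replicate numbers pair the samples, and the main fits used no pairing. With a replicate block 3 promoters (PAU3, PAU10, DAN1) passed under genome scaling and 1 (PAU10) over local background, 1 body (DAN4) under genome scaling and 0 over local background, and past the stop codon 15 under genome scaling and 4 over local background. The block raised calls over all genes too. Under genome scaling it gave 136 promoters lower and 54 higher, 225 bodies lower and 342 higher, and 302 lower and 339 higher past the stop codon. Over local background these were 20 and 13, 94 and 60, and 88 and 72.

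Over all promoters, 73 were lower in rpd3Δ and 20 higher; it was 53 and 61 with TMM over the windows, 28 and 32 with DESeq2 without independent filtering, 15 and 4 with 250 bp windows, 249 and 105 with 1000 bp windows, 20 and 3 with WT samples 1 and 2 summed, and 136 and 54 with the block. Over all alternatives, calls in the other fits ran between 0 and 41 lower and 0 and 13 higher for promoters over local background (3 and 3 as reported), 84 and 225 lower and 106 and 342 higher for bodies under genome scaling (181 and 242), 18 and 97 lower and 14 and 63 higher for bodies over local background (68 and 43), 78 and 302 lower and 70 and 339 higher past the stop codon under genome scaling (182 and 228), and 1 and 108 lower and 1 and 72 higher there over local background (15 and 19). The cause was not tested. Leaving out empty bins acts on the local background alone, and TMM and total signal have no counterpart there. The few counts per promoter window limit the precision of each value.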
